A study of Mus musculus with 2 samples.

Results

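Keratinocyte mimetic cells are medullary thymic epithelial cells (mTEC) that carry the expression programme of the upper epidermis. They were picked here from 1 droplet library of sorted mouse thymic epithelium. A cell was a member when it passed the quality bounds and had at least 1 UMI of at least 4 of 10 genes: Krt10, Krt1, Krtdap, Sbsn, Dmkn, Lypd3, Grhl1, Ivl, Dsc1 and Calm4. A UMI stands for 1 captured RNA molecule. The rule found 236 members among 2527 passing barcodes (9.34%) of 3447 deposited ones.

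The library held thymic cells of 6 female mice aged 6 weeks, 2 each of the inbred strains NOD, which develops spontaneous autoimmune diabetes, BALB/c and C57BL/6 (B6), and no mouse had been treated. In every group the tissue was digested, CD45-positive cells were removed on magnets, and the sort then kept low-MHC class II mTEC free of podoplanin (Pdpn) and of CD104, the product of Itgb4. Each mouse was tagged with its own hashtag antibody before pooling, so the mouse is the replicate, and all cells share 1 capture and 1 gene expression library. One label numbers both NOD hashtags as the first replicate, and they were kept apart as NOD 1 and NOD 2 because the design text gives a pair of mice for each strain.

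The medulla of the thymus displays proteins of peripheral tissues to developing T cells. Besides the broad, Aire-driven expression in mature mTEC, small groups of mTEC, called mimetic cells, adopt whole programmes of peripheral cell types through the lineage-defining transcription factors of those cells. In skin, keratinocytes leave the basal layer, exchange Krt5 and Krt14 for Krt1 and Krt10, build desmosomes, and at the end cross-link a cornified envelope, secrete barrier lipids and shed through the action of kallikrein proteases. Keratinised cells of this kind are the classical constituents of Hassall's corpuscles in the thymic medulla.

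The strain of every member rests on the 15-base barcodes of 6 hashtag antibodies, which are therefore shown here as listed in the deposited feature table, 5′ to 3′.
NOD 1: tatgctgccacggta
NOD 2: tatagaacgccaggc
BALB/c 1: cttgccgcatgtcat
BALB/c 2: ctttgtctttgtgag
B6 1: acccaccagtaagac
B6 2: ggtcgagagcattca
A cell took the mouse whose hashtag held at least 80% of these 6 hashtags' UMIs, out of at least 100. This gave 15 members in NOD 1 and 23 in NOD 2, 45 in BALB/c 1 and 62 in BALB/c 2, and 24 in B6 1 and 36 in B6 2. The other 31 members had no leading hashtag, or in 1 case too few hashtag UMIs, and stayed without a strain. Their median depth was 29972 UMIs, against 20276 UMIs in the 205 members with a strain, and whether some of them are droplets of 2 cells was not tested.

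The 10 genes chose the cells, so their values are a description. Of the 236 members, 120 had 4 to 6 of the genes and 116 had 7 to 10. Members just inside the threshold, with 4 genes (60 cells), held a median of 9 UMIs of the 10 genes. Cells just outside it, with 3 genes (193 cells), held a median of 6 UMIs. The median was 15 UMIs over all members with 4 to 6 genes and 500 UMIs over those with 7 to 10, where it ranged over cells between 12 and 4721.

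Marker lists of other cell types separated these bands. The summed level of 18 tuft cell genes was 671.8 CPM (UMIs of the summed cells, scaled to 1000000) in members with 7 to 10 rule genes, against 4537.4 CPM in members with 4 to 6, and 4711 CPM in cells with 3. Ciliated cell genes stood at 93.9 CPM in members with 7 to 10 rule genes, against 1434 CPM in those with 4 to 6. B or plasma cell genes stood at 41.1 CPM, against 2926.1 CPM. The data thus carried the keratinocyte label in members with 7 or more rule genes, whereas members with 4 to 6 held keratinocyte genes at low counts beside markers of several other lineages. The 116 cells with 7 or more rule genes are called core members below. That threshold was set after these values were seen, and strain results are given for both sets.

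**Figure D1:**
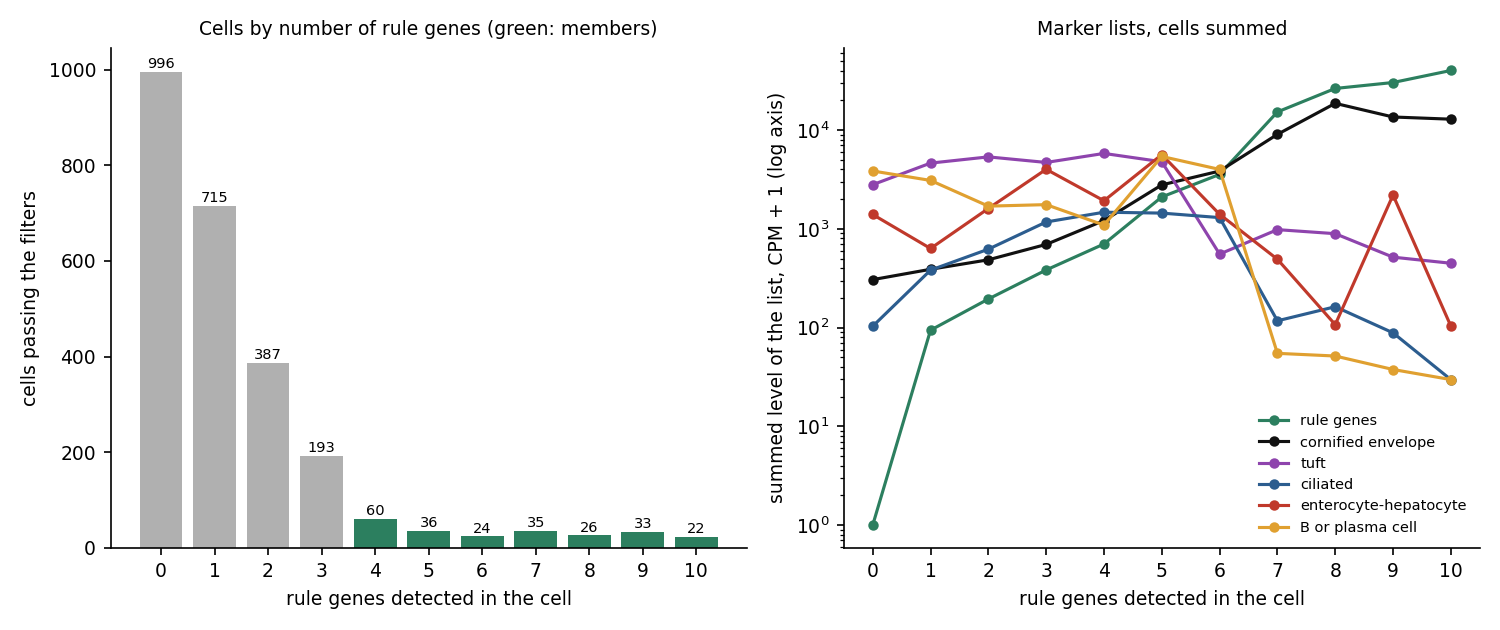
The left panel gives the number of passing cells by the number of rule genes detected, and the right panel the summed level of marker lists (CPM + 1, log axis) in the same bands of cells. Cells with 4 genes number 60, and in members with 7 to 10 rule genes the tuft list sums to 671.8 CPM, against 4537.4 CPM in members with 4 to 6.

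The core members carried markers of epithelium. Epcam, the epithelial adhesion molecule used to define thymic epithelium, had a UMI in 99.1% of the 116 core members, against 87.3% of the other passing cells. Trp63, the master regulator of stratified epithelia, had a UMI in 86.2%, against 36.9%. Fezf2, a transcription factor that drives tissue-restricted genes in mTEC, had one in 81.0%, against 36.5%. Aire, the other such regulator, had a UMI in 1.7% of core members, against 13.4% of the other passing cells. The genes of the sort gate were low: Pdpn reached at most 3.997 CPM in the core members of any mouse, and Itgb4 lay between 0 and 13.99 CPM. Of all 236 members, 21 had a UMI of Ptprc, which encodes CD45.

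The rule fixed in large part in how many core members its genes were detected, so these shares describe the cells and support nothing. Krt10, the suprabasal type I keratin, had a UMI in 96.6% of core members, against 16.3% of the 516 other passing cells with at least 2 Ptprc UMIs. Those 516 cells are no clean negative set, since 72.1% of them also had an Epcam UMI and 43.2% a Krt8 UMI. A single Epcam UMI therefore does not tell core members from them. Whether free RNA or mixed droplets gave these UMIs was not tested. Median depth was 22155 UMIs in core members and 26655 UMIs in those 516 cells. Ivl, the cornified envelope precursor involucrin, was detected in 69.0% of core members and in 0 of those 516 cells, which allows a share of cells with a UMI of up to 0.581% by a floor of 3 cells. Dsc1, the desmosomal cadherin of the upper epidermis, was detected in 52.6% against 0.2%. Krt1, the type II partner of Krt10, was the least often detected, in 37.9% against 3.3%.

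Each of the 10 rule genes was higher in the core members than in the other cells of every mouse. The other cells are those with a strain, fewer than 4 rule genes and no Ptprc UMI, 1330 in all. Because the rule chose the cells by these genes, and the remaining genes were measured in the same cells, no test is given for this contrast. Levels are means over 6 mice of the CPM in each mouse's summed cells. Krtdap, a small secreted protein of differentiating keratinocytes, stood at 13738 ± 3824 CPM in core members (SD, n = 6), against 85.3 CPM in other cells. Calm4, a calmodulin-like protein of the upper epidermis, stood at 3932 ± 1526 CPM, against 4.79 CPM. Grhl1, a grainyhead transcription factor that controls desmosomal cadherins, stood at 270 ± 37.1 CPM, against 14.7 CPM.

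The keratin pair varied more between mice than the secreted proteins. Krt10 stood at 6189 and 3221 CPM in the core members of NOD 1 and NOD 2, at 1949 and 2467 CPM in BALB/c 1 and 2, and at 3477 and 4041 CPM in B6 1 and 2. Krt1 stood at 2483 and 591 CPM in NOD, at 132 and 362 CPM in BALB/c, and at 982 and 1295 CPM in B6. One cell held 605 of the 607 Krt1 UMIs of NOD 1, so that value and its place above B6 rest on 1 cell. BALB/c mice held the lowest values of both keratins, and the NOD mice lay on either side of the B6 mice for both. Krt77, a further type II keratin, stood at 57.3 and 523 CPM in NOD, at 620 and 1134 CPM in BALB/c, and at 1384 and 2310 CPM in B6. Krt77 did not pass the strain test given below in any pair of strains, and its NOD 1 value rests on 14 UMIs from 3 cells.

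**Figure D2:**
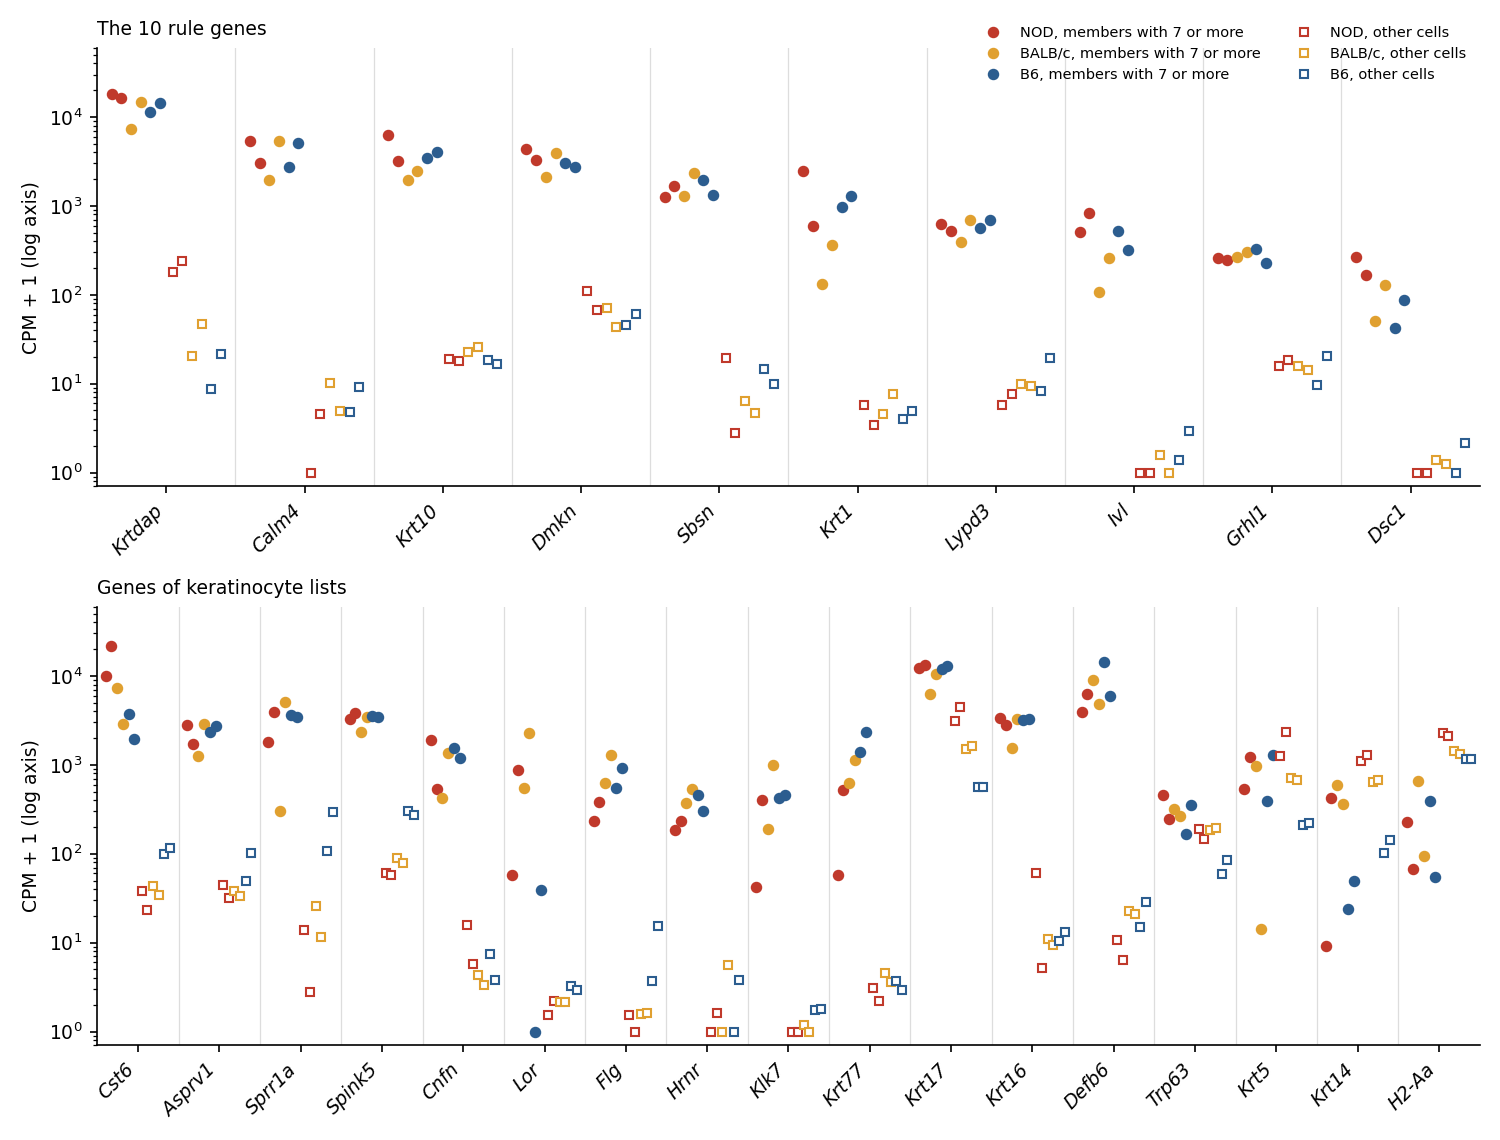
Levels per mouse (CPM + 1, log axis) of the 10 rule genes (upper panel) and of genes from the keratinocyte lists (lower panel), with filled circles for core members and open squares for other cells of NOD, BALB/c and B6 mice. Krtdap averages 13738 CPM in core members and 85.3 CPM in other cells, and Lor spans 0 to 2258 CPM over the core members of the 6 mice.

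Across the 116 core members the secreted proteins moved together and the keratins did not follow them as closely. Spearman's rho of CPM between cells was 0.82 for Krtdap and Dmkn, 0.80 for Sbsn and Dmkn, and 0.72 for Krtdap and Sbsn. It was 0.35 for Krt10 and Krt1. These are descriptions, since the cells share a library, were chosen by these genes and differ in depth. Krtdap, Sbsn and Dmkn are also neighbours on the plus strand of mouse chromosome 7 (mm10): Sbsn, which encodes suprabasin, at 30751471 to 30756134, Dmkn, which encodes dermokine, at 30763756 to 30781063, and Krtdap at 30787896 to 30791097.

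The promoters of these 3 neighbours are shown because their genes moved together. They are 300 bases each of RefSeq on GRCm38.p6, plus strand, with capitals for the AP-1 letters TGANTCA and for the TATA letters TATAAA.
Sbsn, chr7:30751221-30751520: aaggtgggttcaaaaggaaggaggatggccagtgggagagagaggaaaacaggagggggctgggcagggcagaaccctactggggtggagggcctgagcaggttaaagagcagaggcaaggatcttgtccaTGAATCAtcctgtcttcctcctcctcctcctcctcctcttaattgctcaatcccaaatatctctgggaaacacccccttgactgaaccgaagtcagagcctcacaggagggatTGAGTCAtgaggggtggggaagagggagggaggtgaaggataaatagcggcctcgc
Dmkn, chr7:30763506-30763805: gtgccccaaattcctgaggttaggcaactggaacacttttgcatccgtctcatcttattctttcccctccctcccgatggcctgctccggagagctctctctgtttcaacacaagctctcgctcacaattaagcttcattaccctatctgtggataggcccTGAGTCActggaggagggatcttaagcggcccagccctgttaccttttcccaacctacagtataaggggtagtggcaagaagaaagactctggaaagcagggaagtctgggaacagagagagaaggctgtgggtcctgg
Krtdap, chr7:30787655-30787954: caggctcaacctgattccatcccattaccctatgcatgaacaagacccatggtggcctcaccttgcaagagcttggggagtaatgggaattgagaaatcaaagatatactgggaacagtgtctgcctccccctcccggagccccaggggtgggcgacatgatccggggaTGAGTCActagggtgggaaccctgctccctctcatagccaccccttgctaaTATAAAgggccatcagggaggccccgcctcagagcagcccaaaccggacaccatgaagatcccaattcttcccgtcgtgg
Of 8 rule genes whose promoters were read, 4 held the AP-1 letters on either strand in at least 1 promoter, the fourth being Ivl. Some of these genes have several promoters, and 6 promoters of the rule genes held the letters. Several of these 6 belong to Dmkn, and those that start at 30763506 and 30763508 overlap and hold the same match. Counted by promoter and not by gene, 7.81% of all 32851 promoters held the AP-1 letters, so the shares are in unlike units. The letters ACCGGTT, used for grainyhead factors, were in none of the rule gene promoters and in 1.02% of all promoters. The letters CATGNNNNNNCATG, used for p63, were also in none of them and in 0.712% of all promoters. The letters searched did not overlap one another, and a match is not a site of binding.

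Beyond the rule genes, the 25 genes with the highest ratio to the other cells included epidermal enzymes, inhibitors and alarmins, and also genes of no such class. The ratio was taken over all 236 members among genes with at least 20 CPM in the members of every mouse, and levels below are those of the core members. The highest ratio belonged to 2310046K23Rik, at 1576 ± 1305 CPM, against 0.847 CPM in other cells. Klk7, a kallikrein protease of skin shedding, stood at 417 ± 326 CPM, against 0.291 CPM in other cells. Stfa3, a stefin protease inhibitor, stood at 931 ± 1286 CPM, against 0.602 CPM. Il1f6, which encodes the cytokine interleukin-36 alpha, stood at 448 ± 271 CPM, against 1.13 CPM, and Il1f5, the antagonist of its receptor, at 305 ± 100.3 CPM, against 0.731 CPM. The SD is over mice, and for Stfa3 it is larger than the mean because NOD 1 held 3530 CPM and the 5 other mice 136 to 648 CPM.

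Secreted and antimicrobial proteins were among the same leading genes. Defb6, a beta-defensin, stood at 7410 ± 3856 CPM in core members, against 16.4 CPM in other cells. Scgb1a1, a secretoglobin best known from airway club cells, stood at 1483 ± 855 CPM, against 4.62 CPM. Scgb1a1 is thus a leading gene that the epidermal lists do not hold. The lipid enzymes Abca12, a lamellar-body lipid transporter, and Pnpla1, which makes the omega-esterified ceramides of the skin barrier, were also among the 25 leading genes, at 214 ± 67.3 CPM and 47.2 ± 14.7 CPM.

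The lists of epidermal genes give the programme by its steps. Among the 8785 genes other than the rule genes at 20 CPM or more in either set of cells, 14.9% were higher in the core members of 6 of 6 mice, 33.2% were lower in 6 of 6, and the median ratio was 0.805. Of 20 suprabasal genes, which do not include the rule genes, 19 were higher in 6 of 6 mice, with a median ratio of 15.4. One of them, Cst6, an inhibitor of the cathepsins that act on envelope transglutaminase, stood at 7936 ± 7402 CPM, against 57.8 CPM. Of 13 desmosome genes, 10 were higher and 2 lower. Dsp, the desmosomal plaque protein desmoplakin, stood at 1717 ± 110.0 CPM in core members, against 337 CPM in other cells. Perp, a tetraspan protein of desmosomes, stood higher too, whereas Dsg2, the desmoglein of simple epithelia, was among the lower ones.

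Cornified envelope genes had the highest median ratio of the lists. Of 24 measured members, 16 were higher in 6 of 6 mice and 0 lower, with a median ratio of 187. Cnfn, the envelope protein cornifelin, stood at 1158 CPM, against 5.78 CPM, and Flg, the keratin-bundling protein filaggrin, at 666 CPM, against 3.16 CPM. Of 21 desquamation proteases and inhibitors, 15 were higher in 6 of 6 mice, with a median ratio of 43.2. Spink5, the kallikrein inhibitor LEKTI, stood at 3318 ± 506 CPM, against 142 CPM. Asprv1, the protease that trims filaggrin, stood at 2281 ± 667 CPM, against 48.6 CPM.

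The lipid barrier list moved almost as a whole. Of its 25 measured genes, 24 were higher in 6 of 6 mice and 0 lower, with a median ratio of 9.09. Elovl4, which elongates the very long fatty acids of skin ceramides, stood at 333 ± 85.1 CPM in core members, against 4.83 CPM in other cells. Cers3, the ceramide synthase that uses those fatty acids, stood at 105 ± 30.02 CPM, against 2.43 CPM.

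The regulators of the programme differed less from the other cells. Of 30 keratinocyte transcription factors, 20 were higher in 6 of 6 mice and 2 lower, with a median ratio of 2.43. Cebpb, a leucine zipper factor of differentiating keratinocytes, stood at 1073 ± 288 CPM, against 133 CPM. Klf4, a Krüppel-like factor needed for the skin barrier, stood at 799 ± 333 CPM, against 137 CPM. Trp63 stood at 302 ± 102 CPM, against 142 CPM. Of 10 Notch pathway genes, 6 were higher and 2 lower, among the higher ones Nrarp, a feedback target of the pathway, at 198 ± 57.1 CPM against 8.42 CPM.

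Basal and simple-epithelial genes stood at the other end. Of 12 basal keratinocyte genes, 0 were higher in 6 of 6 mice and 9 were lower, with a median ratio of 0.128. Itga6, the integrin that anchors basal cells, stood at 25.9 CPM in core members, against 255 CPM in other cells. Krt5, the basal keratin, varied widely between the mice in core members. It stood at 536 and 1236 CPM in NOD, at 981 and 13.2 CPM in BALB/c, and at 388 and 1295 CPM in B6. These values rest on few cells. In NOD 1 and NOD 2 the Krt5 UMIs came from 2 cells each. One cell held 396 of the 1732 Krt5 UMIs in core members with a strain. Krt8, a keratin of simple epithelia and of many mTEC, stood at 366 CPM, against 1677 CPM. Krt17, a keratin of stressed and appendage epithelium, stood at 11145 ± 2599 CPM, against 1979 CPM.

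The core members carried less of the antigen presentation and cell cycle programmes than the other cells. Of 21 mTEC and antigen presentation genes, 1 was higher in 6 of 6 mice and 11 were lower, with a median ratio of 0.42. H2-Aa, a chain of MHC class II, stood at 249 CPM in core members, against 1579 CPM in other cells. The sort took cells with low MHC class II in both sets. Of 11 cell cycle genes, 0 were higher and 8 lower. Of 18 tuft cell genes, 0 were higher and 15 lower. The myeloid or dendritic list summed to 1304 ± 660 CPM in core members, against 777 CPM in other cells, and 1105 CPM of it was Cst3, a gene that many cell types express.

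**Figure D3:**
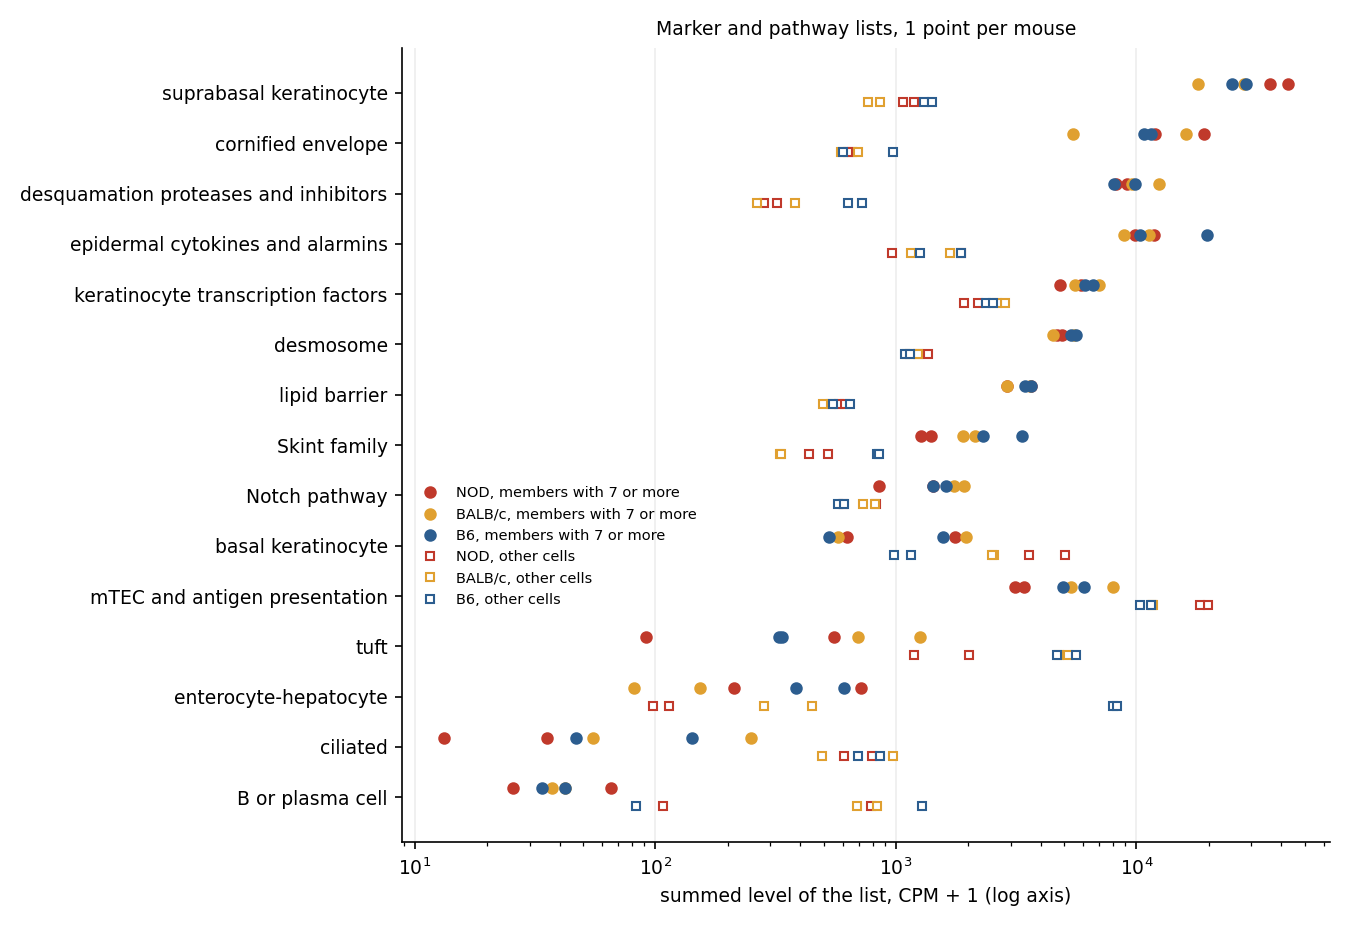
Summed level (CPM + 1, log axis) of marker and pathway lists, 1 point per mouse, with filled circles for core members and open squares for other cells. The epidermal lists sit to the right in core members, and the tuft, ciliated and antigen presentation lists sit to the left, with a tuft mean of 541.6 CPM against 3902 CPM.

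The terminal envelope protein loricrin split the core members. Lor had 4216 UMIs in all core members, of which 12 cells held 89.4%, and 46 of the 116 cells had a UMI. A cut at 3 Lor UMIs was made after these values were seen, so the split is described with no test. The 34 cells above it came from NOD 1 (2), NOD 2 (3), BALB/c 1 (9), BALB/c 2 (13) and B6 2 (2), with 5 cells without a strain and 0 from B6 1. Their median depth was 26781.5 UMIs, against 19790.0 UMIs in the 82 other core members.

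In summed level, the genes of the outermost layers did not all follow loricrin. Flg stood at 2086 CPM in the 34 cells, against 781 CPM in the 82 cells. Klk7 stood at 1017 CPM, against 368 CPM, and Asprv1 at 4587 CPM, against 1543 CPM. Lower in the cells with loricrin were the kallikrein gene Klk14, at 92.7 CPM, against 165 CPM, and Sprr2d, at 450 CPM, against 1122 CPM. The share of cells with a UMI was not lower, at 47.1% against 42.7% for Klk14 and 29.4% against 28.0% for Sprr2d. One cell held 642 of the 2664 Sprr2d UMIs in core members, and the sets of cells also differed in their mix of mice. Genes of earlier layers were mixed as well. Krt1 stood at 340 CPM in the cells with loricrin, against 876 CPM, Krt5 at 52.6 CPM, against 854 CPM, and Trp63 at 146 CPM, against 327 CPM. Krt1 had a UMI in 38.2% against 37.8% of cells, and 1 cell held 605 of its 2070 UMIs in core members. For Krt5 the shares were 17.6% against 36.6%, and for Trp63 70.6% against 92.7%. Krt14, the partner of Krt5, was higher in summed level in the cells with loricrin, at 789 CPM, against 229 CPM. Fewer of those cells had a Krt14 UMI, 29.4% against 36.6%, and 1 cell held 282 of its 1153 UMIs in core members. Krt10 stood at 2812 CPM, against 3287 CPM. Cd74, the MHC class II chaperone, stood at 399 CPM, against 1291 CPM. Across the 116 cells, Spearman's rho was -0.05 for Krt1 and Lor and 0.41 for Krtdap and Lor.

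The first question between strains was whether the share of keratinocyte mimetic cells differs. Members were 12.5% of the assigned cells of NOD 1 and 18.9% of NOD 2, 10.9% and 10.4% in BALB/c, and 11.2% and 14.9% in B6. The strain means were 15.7% ± 4.49 in NOD, 10.7% ± 0.355 in BALB/c and 13.1% ± 2.67 in B6 (SD, n = 2 each). The BALB/c mice were the lowest, by little, and the NOD and B6 mice overlapped. The 3 strains did not differ beyond the spread between mice (two-sided exact permutation test, p = 0.267, the smallest this design allows being 0.0667). Core members were 8.24% ± 4.58 in NOD, 5.78% ± 0.621 in BALB/c and 5.59% ± 2.65 in B6 (exact permutation p = 0.8), so the order of BALB/c and B6 turned with the threshold of the rule.

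**Figure D4:**
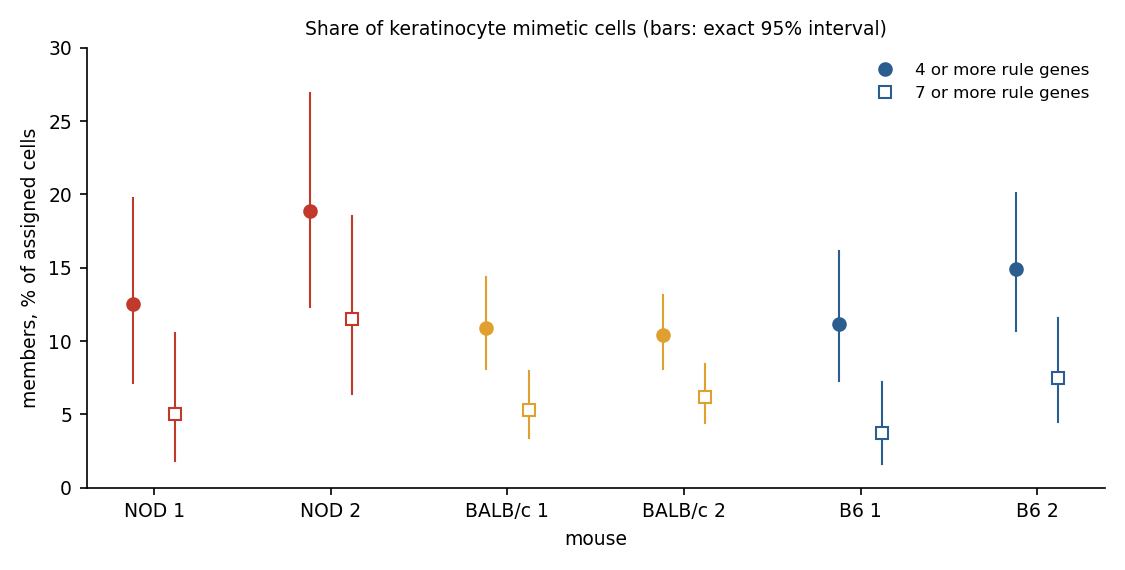
Share of members among the assigned cells of each mouse (percent), filled circles for 4 or more rule genes and open squares for 7 or more, with exact 95% binomial intervals that cover counting error only. NOD 2 is the highest by both counts, with 18.9% and 11.5%.

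The second question was which genes differ between strains inside these cells. UMIs were summed over the members of each mouse and tested with edgeR's quasi-likelihood test over all genes, with an adjusted p under 0.05 as the threshold. Members gave 462694 and 618783 UMIs in NOD 1 and 2, 1010469 and 1274200 in BALB/c 1 and 2, and 772200 and 746523 in B6 1 and 2. Core members gave 244475 and 436251 UMIs in NOD, 500361 and 756735 in BALB/c, and 218866 and 367478 in B6. NOD 1 has 6 core members and B6 1 has 8, so a value in those mice can rest on a few cells.

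Few genes passed in the full set of members. Of 9959 genes tested, 4 passed between NOD and B6 (0.0402%), 2 between NOD and BALB/c (0.0201%) and 5 between BALB/c and B6 (0.0502%). In core members, of 6761 genes tested, 39 passed between NOD and B6 (0.577%), 70 between NOD and BALB/c (1.04%) and 24 between BALB/c and B6 (0.355%). All 11 calls of the full set were also called in core members. In core members, none of 12 desmosome, 21 desquamation, 31 transcription factor, 9 Notch and 5 basal genes tested passed in any pair of strains. Of 20 suprabasal genes, Skint3 was lower in NOD than in B6 and in BALB/c than in B6, and Gjb2 and Ly6g6c were higher in NOD than in BALB/c. The Ly6g6c call was lost without NOD 1, NOD 2, BALB/c 1, B6 1 or B6 2. The cornified envelope, lipid barrier and cytokine lists had at most 1 call in a pair, given with the genes below.

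The clearest difference lay in the Skint genes, a mouse family of butyrophilin-like transmembrane proteins of thymic epithelium and skin, whose founder Skint1 selects a class of gamma-delta T cells of the epidermis. Skint3 (chromosome 4, 112232245 to 112300468, plus strand, mm10) stood at 0 and 0 CPM in the core members of NOD, at 2.00 and 0 CPM in BALB/c, and at 886 and 1548 CPM in B6. A Skint3 UMI was found in 0 of the 20 core members from NOD, in 1 of the 59 from BALB/c and in all 26 from B6. The level was at least 295-fold lower in NOD than in B6 (floor of 3 counts over the strain, edgeR adjusted p = 0.000622). B6 over BALB/c was 1636 (exact 95% interval 293 to 64696, edgeR adjusted p = 0.000305).

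Skint4, its neighbour at 112072016 to 112168076, showed the same contrast. It stood at 0 and 2.29 CPM in the core members of NOD, at 0 and 0 CPM in BALB/c, and at 334 and 313 CPM in B6. BALB/c was at least 134-fold lower than B6 (floor of 3 counts over the strain, edgeR adjusted p = 0.000305). B6 over NOD was 218 (exact 95% interval 38.7 to 8666, edgeR adjusted p = 0.000699). In the full set of members BALB/c was at least 159-fold lower than B6 for Skint4 (edgeR adjusted p = 0.0419), a call lost without any 1 of the BALB/c and B6 mice.

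The rest of the family was less uniform. Of the 10 Skint genes of the list, which does not hold Skint3, 2 were lower in NOD than in B6 (Skint4 and Skint6), 0 passed between NOD and BALB/c, and 1 was lower in BALB/c than in B6 (Skint4). Skint6 stood at 49.1 and 18.3 CPM in NOD, at 36.0 and 48.9 CPM in BALB/c, and at 187 and 229 CPM in B6, a log2 difference of -2.58 ± 0.48 (SE) between NOD and B6 (edgeR adjusted p = 0.0474), which was lost without B6 1, B6 2 or NOD 2. Skint9 stood at 0 and 4.58 CPM in NOD, at 0 and 0 CPM in BALB/c, and at 151 and 525 CPM in B6, and did not pass (edgeR adjusted p = 0.0948 for NOD and 0.0631 for BALB/c). Skint1 was present in all mice, at 110 and 108 CPM in NOD, at 258 and 299 CPM in BALB/c, and at 233 and 250.0 CPM in B6.

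The Skint contrast was not shown to be particular to these cells. In the other cells Skint3 stood at 1.07 and 0 CPM in NOD, at 0 and 1.002 CPM in BALB/c, and at 59.9 and 116 CPM in B6. The interaction of cell set and strain did not pass for Skint3 (edgeR adjusted p = 0.574 for NOD and 0.554 for BALB/c, both against B6). Skint3 shared 1.17% of its 31-base words with its closest relative Skint2, and Skint4 shared 0.599% with its closest match. The reference genome derives from C57BL/6J, and whether NOD or BALB/c reads of these genes failed to align was not tested.

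**Figure D5:**
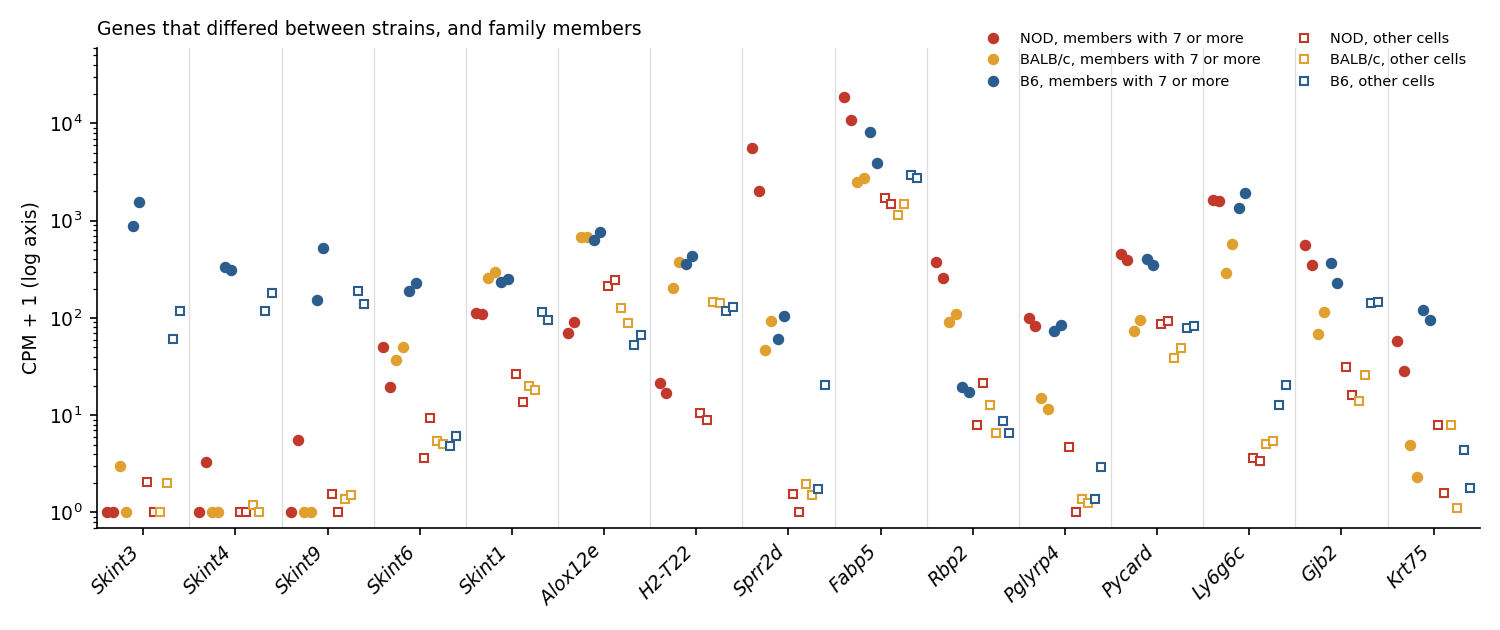
Levels per mouse (CPM + 1, log axis) of genes that differed between strains, and of other Skint genes, in core members (filled circles) and other cells (open squares). Skint3 lies at 2.00 CPM or less in the core members of NOD and BALB/c and at 886 and 1548 CPM in those of B6, and Alox12e is low in NOD core members but not in NOD other cells.

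Alox12e, an epidermal lipoxygenase of the lipid barrier list (chromosome 11, 70315610 to 70322628, minus strand, mm10), differed between strains in opposite directions in core members and other cells. In core members it stood at 69.5 and 89.4 CPM in NOD, at 678 and 686 CPM in BALB/c, and at 640 and 759 CPM in B6. The NOD mice lay below all others. The log2 difference was -2.98 ± 0.33 between NOD and B6 (SE, edgeR adjusted p = 0.00249) and -2.89 ± 0.33 between NOD and BALB/c (edgeR adjusted p = 0.00540), and both passed with each mouse left out in turn.

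In the other cells Alox12e stood at 212 and 247 CPM in NOD, at 127 and 88.6 CPM in BALB/c, and at 51.9 and 65.3 CPM in B6, so the NOD mice lay above all others. The interaction of cell set and strain was -5.07 ± 0.37 on the log2 scale between NOD and B6 (edgeR adjusted p = 0.000272) and -4.19 ± 0.36 between NOD and BALB/c (edgeR adjusted p = 0.000851). The other cells are a mix of cell types that differed between strains, as given below, and the part of that mix here was not tested. In the full set of members, which adds cells with 4 to 6 rule genes, Alox12e stood at 95.1 and 155 CPM in NOD, at 401 and 494 CPM in BALB/c, and at 306 and 438 CPM in B6. It did not pass there between NOD and B6 (log2 difference -1.51, edgeR adjusted p = 0.262). It was the 1 gene called of 26 tested lipid barrier genes in each of the NOD pairs.

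The small proline-rich envelope gene Sprr2d (chromosome 3, 92339140 to 92340873, plus strand, mm10) was higher in NOD. It stood at 5608 and 2019 CPM in the core members of NOD, at 46.0 and 91.2 CPM in BALB/c, and at 59.4 and 103 CPM in B6. The log2 difference was 5.68 ± 0.71 between NOD and B6 (SE, edgeR adjusted p = 0.0222) and 5.97 ± 0.71 between NOD and BALB/c (edgeR adjusted p = 0.0150). It was detected in 5 of 6 and 10 of 14 core members of the NOD mice, in 3 of 22 and 7 of 37 of the BALB/c mice, and in 1 of 8 and 2 of 18 of the B6 mice, and 1 cell held 26.8% of all its UMIs. The call against B6 was lost without either B6 mouse, and the call against BALB/c was lost without BALB/c 1. Sprr2d was the 1 gene called of 22 tested cornified envelope genes in each NOD pair.

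Rbp2, a cellular retinol-binding protein best known from the intestine, stood at 199 and 197 CPM in all members of NOD, at 74.2 and 69.1 CPM in BALB/c, and at 6.48 and 10.7 CPM in B6. NOD exceeded B6 by 4.56 ± 0.33 on the log2 scale (SE, edgeR adjusted p = 0.0186), a call lost in each of the 6 fits that left out a mouse. In core members it stood at 376 and 254 CPM in NOD, at 89.9 and 110.0 CPM in BALB/c, and at 18.3 and 16.3 CPM in B6, and all 3 pairs passed, with NOD over B6 at 4.32 ± 0.43 (edgeR adjusted p = 0.00136). The call between BALB/c and B6 was lost without any 1 of those 4 mice, and that between NOD and BALB/c was lost without NOD 1, BALB/c 1, BALB/c 2 or B6 1. All 92 UMIs of NOD 1 lay in 1 cell, whereas 7 of 14 core members of NOD 2 held the gene.

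Fabp5, the fatty acid-binding protein of the epidermis, was picked out after its values were seen. It stood at 18493 and 10884 CPM in the core members of NOD, at 2500.2 and 2724 CPM in BALB/c, and at 8206 and 3943 CPM in B6. NOD exceeded BALB/c by 2.69 ± 0.44 on the log2 scale (SE, edgeR adjusted p = 0.0239), and the interaction with the other cells was 2.18 (edgeR adjusted p = 0.0315). One cell held 2741 of its UMIs, or 17.3% of those in core members, which is more than any BALB/c or B6 mouse had. The call was lost without NOD 1, BALB/c 1 or BALB/c 2. Adding the UMIs of Gm6166, a pseudogene that shares 68.6% of its 31-base words with Fabp5, gave 18497 and 10888 CPM in NOD, with 2644 and 2866 CPM in BALB/c, and with 8210 and 3943 CPM in B6.

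Pglyrp4, an antibacterial peptidoglycan recognition protein of skin, stood at 98.2 and 82.5 CPM in the core members of NOD, at 13.99 and 10.6 CPM in BALB/c, and at 73.1 and 84.4 CPM in B6. NOD exceeded BALB/c by 3.05 ± 0.42 (log2, SE, edgeR adjusted p = 0.0107), and BALB/c was below B6, at -2.73 ± 0.43 (edgeR adjusted p = 0.0226), a call lost without any 1 of the BALB/c and B6 mice. Pycard, the inflammasome adaptor ASC, was picked out after its values were seen and stood at 458 and 394 CPM in NOD, at 71.9 and 93.8 CPM in BALB/c, and at 402 and 351 CPM in B6. It passed between NOD and BALB/c (log2 difference 2.54 ± 0.34, edgeR adjusted p = 0.0101), a call lost without BALB/c 1. It also passed between BALB/c and B6 (log2 difference -2.21 ± 0.33, edgeR adjusted p = 0.0174), a call lost without BALB/c 1, B6 1 or B6 2. For both genes the BALB/c mice lay below all others. Pglyrp4 was the 1 gene called of 17 tested cytokine and alarmin genes in those 2 pairs.

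Gjb2, the gap junction protein connexin 26, stood at 556 and 346 CPM in the core members of NOD, at 68.0 and 114 CPM in BALB/c, and at 370 and 229 CPM in B6, and passed between NOD and BALB/c (log2 difference 2.48 ± 0.43, edgeR adjusted p = 0.0280). The call was lost without BALB/c 1 or NOD 1. Krt75, a keratin of hair follicles, stood at 57.3 and 27.5 CPM in NOD, at 3.997 and 1.32 CPM in BALB/c, and at 119 and 95.2 CPM in B6. B6 over BALB/c was 43.6 for Krt75 (exact 95% interval 14.2 to 217, edgeR adjusted p = 0.00473), and its UMIs came from 1 to 6 cells of each mouse.

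Of 10 MHC class I genes tested, 1 passed in each NOD pair and 0 between BALB/c and B6. H2-T22, a nonclassical class I molecule that some gamma-delta T cells recognise, stood at 20.5 and 16.05 CPM in the core members of NOD, at 202 and 379 CPM in BALB/c, and at 361 and 433 CPM in B6. NOD was below B6 by a log2 difference of -4.32 ± 0.49 (SE, edgeR adjusted p = 0.00253). In the other cells it stood at 9.59 and 7.84 CPM in NOD, at 146 and 141 CPM in BALB/c, and at 118 and 129 CPM in B6, and the interaction did not pass (edgeR adjusted p = 0.794). H2-T22 shares 47.2% of its 31-base words with H2-T10, so reads of the pair may be split, and the strains carry different haplotypes of this region. In core members both genes summed to 65.4 and 131 CPM in NOD, to 218 and 411 CPM in BALB/c, and to 384 and 468 CPM in B6. The sum was still lowest in NOD while the gap narrowed.

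Genes outside the epidermal lists were called too. Sgpp2, a sphingosine-1-phosphate phosphatase, stood at 164 and 254 CPM in the core members of NOD, at 48.0 and 37.0 CPM in BALB/c, and at 41.1 and 16.3 CPM in B6, with NOD above B6 by 3.10 ± 0.47 on the log2 scale (SE, edgeR adjusted p = 0.0222), a call lost without B6 2. Slc22a7, an organic anion transporter of liver and kidney, stood at 0 and 2.29 CPM in NOD, at 6.00 and 10.6 CPM in BALB/c, and at 247 and 103 CPM in B6, and B6 over NOD was 107 (exact 95% interval 18.7 to 4264, edgeR adjusted p = 0.00840). Tspan8, a tetraspanin picked out after its values were seen, stood at 53.2 and 52.7 CPM in NOD, at 144 and 104 CPM in BALB/c, and at 448 and 512 CPM in B6. The Slc22a7 UMIs of B6 came from 3 cells in each mouse, and 1 cell held 36 of the 104 UMIs in core members with a strain. Stfa1, a stefin, had its UMIs in B6 from only 3 and 2 cells of the 2 mice.

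Several calls belonged to genes with near-identical copies. Rpl26, a ribosomal protein gene, stood at 1738 and 1932 CPM in the core members of NOD, at 124 and 155 CPM in BALB/c, and at 1206 and 1040.0 CPM in B6. Its processed pseudogene Gm15772, which shares 84.8% of its 31-base words with Rpl26, stood at 0 and 2.29 CPM in NOD, at 496 and 581 CPM in BALB/c, and at 0 and 0 CPM in B6. The 2 genes summed to 1738 and 1935 CPM in NOD, to 620 and 736 CPM in BALB/c, and to 1206 and 1040.0 CPM in B6, so the sum was still lowest in BALB/c while the gap narrowed. The fold changes of these genes, of Gm10039 and of Rps24-ps3 are therefore uncertain.

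The strain differences of core members were then tested against those of the other cells. The other cells are a mix of cell types, and some of their marker lists differed between strains. Their enterocyte-hepatocyte list summed to 96.5 and 113 CPM in NOD, and to 7975 and 8307 CPM in B6. Their immature mTEC list summed to 3334 and 4929 CPM in NOD, and to 585 and 704 CPM in B6. Their ciliated list overlapped, at 796 and 608 CPM against 854 and 692 CPM. The part of this mix in the interactions was not tested. The interaction passed for 117 of 13071 genes between NOD and B6 (0.895%), for 11 between NOD and BALB/c (0.0842%) and for 20 between BALB/c and B6 (0.153%). Among the genes called inside core members, it passed for 8 of 39 between NOD and B6, 5 of 70 between NOD and BALB/c and 1 of 24 between BALB/c and B6. Besides Alox12e these included Bhlhe41, a circadian basic helix-loop-helix repressor, at 8.18 and 18.3 CPM in the core members of NOD and 105 and 95.2 CPM in those of B6, against 69.3 and 95.2 CPM in the other cells of NOD and 24.4 and 30.7 CPM in those of B6. Its interaction was -4.40 on the log2 scale (edgeR adjusted p = 0.00409), and its call inside core members was lost without any 1 of the NOD and B6 mice. With the full set of members the interaction passed for 1 of 13749 genes between NOD and B6 (0.00727%). That gene was Krtdap, by which the cells were chosen, so nothing is read from it. The interaction passed for 0 genes in each of the other 2 pairs (0.0%), where 803 genes between NOD and BALB/c and 730 between BALB/c and B6 had an unadjusted edgeR p under 0.05.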

How the data were processed

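The deposited matrix gave raw UMI counts for genes and for hashtags in every barcode of a 10x 3' v3.1 library. Per the submitters' processing notes, the authors used Cell Ranger 7.0.0 with mm10. Which annotation they used is not given in the sources used here, so positions come from GENCODE M21, matched by identifier for 54435 of 55487 genes. Of 15 hashtag features, 9 were not of this pool.

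Barcodes with at least 500 genes and under 15% mitochondrial UMIs passed, the rule above chose members, and counts were summed per mouse. No doublet caller was run, and cells without a leading hashtag entered no strain comparison. Sums were tested with edgeR 4.0.16 (TMM, filterByExpr, robust quasi-likelihood; R 4.3.3) in 1 fit of the 6 mice, with Benjamini-Hochberg adjustment over all genes and a threshold of 0.05. The interaction fit added the other cells, with mouse as block. The strain fit was tested on simulated counts, and the interaction fit was not. Shares were compared by exact permutation over mice, and exact binomial intervals came from scipy 1.17.1. Intervals cover counting error only, and free RNA was not removed. The labels give separate mice per strain.

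The members and lists were chosen with earlier results of these data known. Genes named between strains were the 10 with the largest change each way among called genes with groups that do not overlap, at least 20 CPM in the higher strain and a symbol, plus called genes of the lists; only some of these are described, and others were chosen after their values were seen, as said beside them. The 10 rule genes stayed in the fits, and nothing is read from their tests. The threshold of 7 rule genes was added after seeing the data. Other thresholds, size factors, filters, equal cell numbers, DESeq2 1.42.0, a replicate block and each mouse left out were tried.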

Additional observations from a re-analysis of the deposited data

Results flagged for a closer look

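Of the strain differences called inside core members, 8 between NOD and B6, 5 between NOD and BALB/c and 1 between BALB/c and B6 differed from those in the other cells by the interaction test (edgeR, adjusted over 13071 genes), and those of genes named by rule, with Fabp5, are given here. Between NOD and B6 the interaction on the log2 scale was -5.07 for Alox12e, 6.13 for Sgpp2, a sphingosine-1-phosphate phosphatase, and -9.34 for Slco5a1, a solute carrier. Slco5a1 had 0 UMIs in the core members of both NOD mice, so its fitted value depends on the prior count and gives no size; its level there was at least 12.8-fold lower than in B6 (floor of 3 counts over the strain). Between NOD and BALB/c it was -4.19 for Alox12e, 2.18 for Fabp5 and -7.54 for Csmd1, which had 1 UMI in the core members of NOD and 214 in those of BALB/c, so that this size too is loose. Between BALB/c and B6 it was 3.11 for Lrmp, which tuft cells also express: the tuft list summed to 1257 and 691 CPM in the core members of BALB/c, against 324 and 335 CPM in those of B6, and its part in the Lrmp result was not tested. Values of Alox12e and Fabp5 stand in the report. The mix of cell types in the other cells differed between strains, and its part in these interactions was not tested.

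Hashtags that belong to no mouse of this pool also gave UMIs in members. HT4 had 283 UMIs in 64 members, HT9 had 342 UMIs in 39 members and HT12 had 146 UMIs in 48 members. Because 80% of the UMIs of the 6 hashtags of the pool were required, these reads entered no assignment.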

How the results depend on the processing

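Counts of called genes are given in the order NOD against B6, NOD against BALB/c and BALB/c against B6. The edgeR counts in all members, 4, 2 and 5, were the same with DESeq2's size factors and under 10% mitochondrial UMIs. They became 130, 86 and 61 with DESeq2's Wald test, 653, 526 and 657 without a filter on low counts, and 7, 8 and 10 with a leading hashtag of at least 90%. With no Ptprc UMI and under 3 tuft markers they were 6, 0 and 4 (the 0 beside 478 genes at an unadjusted p under 0.05), and with equal cells per mouse 2, 1 and 0 (706 unadjusted). With at least 3 rule genes they were 202, 41 and 166, with at least 5 they were 29, 18 and 24, with at least 6 they were 24, 29 and 17, and with at least 7 they were 39, 70 and 24. Leaving out each mouse in turn gave 0 to 5, 0 to 4 and 0 to 18 in all members, and 22 to 60, 30 to 120 and 12 to 63 in core members, where 11, 17 and 9 genes stayed called without any 1 mouse. In such fits the lone mouse is assumed to vary like the other strains. A fit with the replicate block gave 20, 23 and 15. Deviations of mice from their strain mean, compared between strains for mice with the same number, correlated at 0.134 to 0.464 in all members. In core members these correlations were -0.0816 to 0.0869, and with only 2 numbers they were not taken as a pairing. The interaction counts were 1, 0 and 0 with all members and 117, 11 and 20 with core members. The difference in share between NOD and B6 ran between -0.55 and 5.80 points when a mouse was left out, the lowest being without NOD replicate 2. With at least 3 rule genes it was 8.80 points. There the shares were 26.7% and 30.3% in NOD and 18.7% to 20.3% in the other mice (exact permutation p over 3 strains = 0.133). The difference between BALB/c and B6 turned to 0.184 points in core members. Of 68 differences in core members, 62 kept their direction but did not pass at 4 or more rule genes, and Csmd1 between NOD and BALB/c turned to 0.0324 there. The cause of these changes was not tested. NOD 1 and B6 1 have the fewest core members, 6 and 8, which limits what their values show.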

Other observations

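H2-Ea, an MHC class II gene that NOD and B6 do not express because of their haplotypes, whereas BALB/c does, stood at 15.1 and 6.46 CPM in all members of NOD, at 1262 and 407 CPM in BALB/c, and at 6.48 and 9.38 CPM in B6. The BALB/c mice lay above all others, as their hashtags place them. In core members it stood at 16.4 and 6.88 CPM in NOD, at 504 and 58.1 CPM in BALB/c, and at 0 and 13.6 CPM in B6. One cell held 201 of the 321 UMIs in core members, so the gap between the BALB/c mice there rests on it.

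Ribosomal protein genes took 14.2% and 14.4% of the UMIs of core members in NOD, 9.41% and 10.6% in BALB/c, and 11.1% and 9.07% in B6. The NOD mice lay above all others. In the other cells the shares were 13.0% and 12.6% in NOD, 9.08% and 10.5% in BALB/c, and 8.16% and 7.05% in B6, with the NOD mice again highest.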
